A study of Mus musculus with 6 samples.

Results

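Polyamine synthesis and catabolism was examined through 10 genes of the 54532 in the count table, found by their symbols: the synthesis enzymes Odc1, Amd1, Srm and Sms, the regulators of ornithine decarboxylase Azin1, Oaz1 and Oaz2, and the catabolic enzymes Sat1, Smox and Paox. All 10 passed the filter on low counts and were tested. The RNA came from epididymal white adipose tissue (eWAT), the gonadal fat pad of male C57BL/6 mice, which were 6 to 10 weeks old when obtained. The 3 cachectic mice had received a subcutaneous inoculation of LLC cells, a Lewis lung carcinoma line grown as a tumor in mice of the same strain, and the 3 control mice bore no tumor. The comparison asks how the transcripts of wasting fat differ from those of normal fat, and no genetic change is named for either group. Tissue was taken on day 21, and cachexia, a wasting of fat and muscle during cancer, was defined in the study by loss of body weight. The labels do not state whether tissue from several mice was pooled, so the p-values measure the spread between these 6 samples.

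The polyamines putrescine, spermidine and spermine are small, positively charged molecules that bind nucleic acids and are needed for cell growth and for a modification of the translation factor eIF5A. Ornithine decarboxylase (Odc1) makes putrescine, S-adenosylmethionine decarboxylase (Amd1) provides the aminopropyl group, and the synthases Srm and Sms add that group to make spermidine and spermine. Antizymes (Oaz1, Oaz2) send ornithine decarboxylase to the proteasome, and antizyme inhibitor (Azin1) binds antizymes and so spares the enzyme. Spermidine/spermine acetyltransferase (Sat1) marks polyamines for export or oxidation, polyamine oxidase (Paox) oxidizes the acetylated forms, and spermine oxidase (Smox) acts on spermine itself. In adipose tissue this acetylation is known to consume acetyl-CoA, which links the pathway to fat metabolism.

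Several of these transcripts carry short sequence elements through which polyamines are known to act on translation, and these are shown because RNA-seq measures the transcript and not that control. The first antizyme reading frame ends at a stop codon, and the ribosome must shift its frame there to make the whole protein. In the 27 bases around that stop codon, shown with the stop codon in capitals, the Oaz1 and Oaz2 transcripts are identical at 25 positions. The Oaz1 site lies in an exon at chr10:80828283-80828309 on the plus strand of GRCm38, and the Oaz2 site in an exon at chr9:65686260-65686286 on the plus strand. The Amd1 transcript has a short upstream reading frame in its 5′ UTR, at chr10:40302155-40302175 on the minus strand. This frame holds 6 codons before its stop codon, and 296 bases lie between its end and the main start codon. Capitals mark its start and stop codons.
Oaz1: cggtggtgctccTGAtgtccctcaccc
Oaz2: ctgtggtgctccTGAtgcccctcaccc
Amd1: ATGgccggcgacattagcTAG

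In eWAT of cachectic mice, 3 of the 10 polyamine genes differed from control and 7 did not pass the test. Sat1, the acetyltransferase that starts polyamine breakdown, was 1.61-fold higher in cachexia. Amd1, which supplies the aminopropyl group for synthesis, stood at 0.485 of its control level, and Azin1, the protector of ornithine decarboxylase, at 0.661. By role, 1 of 4 synthesis enzymes fell, 1 of 3 ODC regulators fell and 1 of 3 catabolic enzymes rose. Across all 16003 genes tested with the edgeR quasi-likelihood test, 17.6% passed an adjusted p of 0.05, with 9% higher and 8.63% lower in cachexia, so 3 of 10 has to be read against a background that is itself broad. The groups did not overlap for Sat1, Amd1 and Azin1 and overlapped for the other 7, and among all genes tested 40.5% had groups that did not overlap. The median log2 fold change of the 10 genes was 0.08, that of all genes tested was -0.0031, and 6 of the 10 were above 0.

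**Figure D1:**
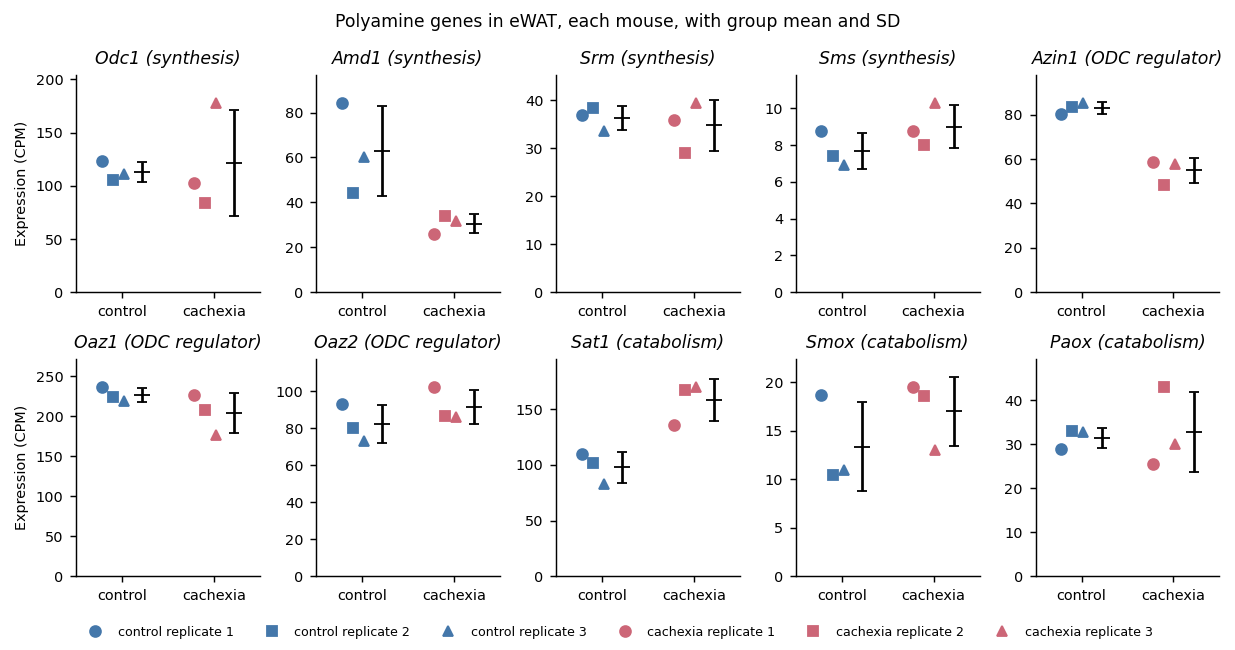
Expression of the 10 polyamine genes in CPM (TMM-scaled counts, linear axis from 0) in each of 3 control (blue) and 3 cachectic (red) mice, with circles, squares and triangles for replicates 1, 2 and 3 and a black bar for the group mean with its SD. The groups are apart for Amd1, Azin1 and Sat1 and overlap for the other 7 genes.

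Values per mouse are given as CPM, the counts scaled to a library total that edgeR's TMM factor adjusted, and levels of different genes are compared only as the deposited FPKM, which are also per kilobase of gene length. Total counts ran from 14928766 to 18855546, and each cachectic library was smaller than each control library. Control replicate 1 stood apart from the other 5 libraries. The 5 epithelial and cilia genes Epcam, Cdh16, Pax8, Foxj1 and Cldn2 summed to 232 CPM there against 0.172 to 2.33 elsewhere, and the sperm protamines Prm1 and Prm2 to 26.7 CPM against 0.0567 to 1.87. These 7 genes were chosen after their values were seen. The genes that passed the test are given with and without this library.

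Markers of other cell types also moved with the groups. In bulk tissue, fewer cells of a type and less RNA per cell cannot be told apart. All 7 tested neutrophil markers were higher in cachexia. The summed level of the 8 listed was 27.9 to 47.9 CPM in control mice and 246 to 639 in cachectic mice. Ly6g, the listed marker too low to test, had 0 counts in the controls and 6 to 10 in cachectic mice. All 6 erythroid genes were higher (summed level 252 to 451 CPM against 1333 to 2855), as were 4 of 8 endothelial genes (1434 to 1598 against 2196 to 3426). Of 8 fibroblast and progenitor genes, 5 were lower (5526 to 6320 against 2300 to 3346). The adipocyte markers defined the tissue in each mouse, at a summed 26570 to 34079 CPM in control and 28841 to 44321 in cachexia, with 2 of 10 higher and 1 lower. Among 8 macrophage markers 1 was higher and 1 lower (1422 to 1784 against 1142 to 1785 CPM), and none of 6 mesothelial (271 to 361 against 155 to 353 CPM) or 6 lymphocyte markers (7.39 to 13.5 against 4.32 to 8.91 CPM) passed. The 6 genes of epididymal epithelium were too low to test, at 0.974 to 4.06 CPM summed in control and 0.553 to 1.52 in cachexia. The part of these cell types in the differences of Sat1, Amd1 and Azin1 was not tested.

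Among the synthesis enzymes, Odc1 (chromosome 12, 17544794 to 17551505, GRCm38 as for all positions given) carries out the initial step and had the widest spread among cachectic mice. It was measured at 123, 105 and 111 CPM in control replicates 1 to 3 and at 102, 83.5 and 178 CPM in cachexia replicates 1 to 3. The highest and the lowest of the 6 values were thus both from cachectic mice, and the SD was 49.9 CPM in cachexia against 9.12 in control (n = 3 each). The log2 fold change of Odc1 was 0.10 (95% confidence interval -0.51 to 0.71, adjusted p = 0.826, edgeR quasi-likelihood test). Without cachexia replicate 3 it was -0.28 (adjusted p = 0.236), so the sign of the Odc1 difference rests on that mouse.

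Amd1 lies on chromosome 10 from 40287458 to 40302186, on the minus strand. Control mice had 84.3, 44.4 and 60.0 CPM of Amd1, and cachectic mice had 25.9, 33.9 and 31.7 CPM. Each cachectic mouse was below each control mouse, and the controls spread more widely than the cachectic mice. The means were 62.9 ± 20.1 and 30.5 ± 4.14 CPM (SD, n = 3), a log2 fold change of -1.04 (SE 0.24, 95% confidence interval -1.59 to -0.50, adjusted p = 0.0230, edgeR). The highest Amd1 value belonged to control replicate 1. Without that library the log2 fold change was -0.78 and the adjusted p was 0.0417. The call was lost without control replicate 3 (adjusted p = 0.0720), cachexia replicate 1 (0.0705) or cachexia replicate 3 (0.0538), while the log2 fold change stayed between -1.24 and -0.78 with any library left out.

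Amd1 also shares much of its sequence with copies in the genome. Of the 100-base windows along its transcript, 76.4% also occur in transcripts of other annotated genes, 2273 of 3105 windows in the near-identical copy Amd2. How reads that fit several genes were counted is not given in the sources used here, so the split of reads between Amd1 and Amd2 is uncertain. Amd2 held 61, 36 and 52 counts in control mice and 9, 10 and 28 in cachectic mice, against 444 to 1680 counts of Amd1. Its log2 fold change was -1.44 (adjusted p = 0.0981, edgeR), which did not pass the threshold.

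Srm and Sms, the spermidine and spermine synthases, did not pass the test. Srm (chromosome 4, 148591503 to 148594993) was at 36.9, 38.3 and 33.5 CPM in control mice and at 35.8, 29.0 and 39.4 CPM in cachectic mice, and the cachexia values spanned those of control. Its log2 fold change was -0.06 (95% confidence interval -0.41 to 0.28, adjusted p = 0.800, edgeR). Sms (chromosome X, 157443855 to 157492287) was measured at 8.78, 7.39 and 6.91 CPM in control and at 8.75, 7.98 and 10.3 CPM in cachexia. These overlapping values gave a log2 fold change of 0.23 (95% confidence interval -0.26 to 0.71, adjusted p = 0.489, edgeR). Sms was the lowest of the 10 genes by FPKM in each of the 6 mice, with a mean of 1.26 ± 0.161 FPKM in control and 1.46 ± 0.190 in cachexia (SD, n = 3).

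Azin1, on chromosome 15 from 38487427 to 38519266 on the minus strand, had the smallest p of the 10 genes. Control mice had 80.3, 83.4 and 85.3 CPM, and cachectic mice had 58.5, 48.4 and 57.8 CPM. The control values lay close together, and each cachectic value was below all of them. The means were 83.0 ± 2.53 and 54.9 ± 5.63 CPM (SD, n = 3), and the log2 fold change was -0.60 (SE 0.12, 95% confidence interval -0.88 to -0.31, adjusted p = 0.0171, edgeR). Without control replicate 1 it was -0.62 (adjusted p = 0.0334). The call was lost without control replicate 2 (adjusted p = 0.0642) or control replicate 3 (0.0806), where the log2 fold change was -0.59 and -0.58. Azin1 overlaps the antisense gene Gm49077, which had 0 to 4 counts in any library.

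The antizyme transcripts did not pass the test in either direction. Oaz1 (chromosome 10, 80826656 to 80829290) was the most abundant of the 10 genes by FPKM in each mouse, with means of 87.4 ± 3.64 FPKM in control and 77.8 ± 9.79 in cachexia (SD, n = 3). In CPM it was at 236, 224 and 218 in control mice and at 227, 207 and 177 in cachectic mice, where the lowest values were cachectic but the ranges overlapped. The log2 fold change of Oaz1 was -0.15 (95% confidence interval -0.49 to 0.18, adjusted p = 0.495, edgeR). Oaz2 (chromosome 9, 65668001 to 65690300) measured 93.2, 80.4 and 73.0 CPM in control mice and 102, 86.7 and 86.1 CPM in cachectic mice. With these ranges overlapping, its log2 fold change was 0.16 (95% confidence interval -0.17 to 0.49, adjusted p = 0.472, edgeR), and without control replicate 1 it was 0.26 (adjusted p = 0.276). Of the 100-base windows of the Oaz1 transcript, 41.8% also occur in the pseudogene Oaz1-ps, so the Oaz1 level is uncertain, while the share for Oaz2 is 3.33%. Such windows also make up 27.7% of Sms (in Sms-ps and another gene), 25.4% of Paox (Gm19680), 19.6% of Odc1 (several genes) and 5.45% of Azin1 (Gm49077), and none of Srm or Smox.

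Sat1, on the X chromosome from 155213132 to 155216449 on the minus strand, was the member that rose. It was at 110, 102 and 82.6 CPM in control mice and at 136, 167 and 170 CPM in cachectic mice, and each cachectic mouse lay above each control mouse. The log2 fold change was 0.69 (SE 0.16, 95% confidence interval 0.32 to 1.06, adjusted p = 0.0250, edgeR). In FPKM the mean went from 34.9 ± 4.95 to 55.6 ± 6.48 (SD, n = 3). Without control replicate 1 the log2 fold change was 0.78 (adjusted p = 0.0326). The call was lost when control replicate 2 (adjusted p = 0.0780), control replicate 3 (0.111), cachexia replicate 2 (0.0605) or cachexia replicate 3 (0.0533) was left out, with log2 fold changes from 0.58 to 0.71. Of the Sat1 windows 0.376% occur in another gene. The study itself reported Sat1 as significantly higher in wasting eWAT, from its RNA-seq and from follow-up qPCR.

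The oxidases Smox and Paox did not pass the test. Smox (chromosome 2, 131491496 to 131525922) was measured at 18.7, 10.5 and 10.9 CPM in control mice and at 19.5, 18.6 and 13.0 CPM in cachectic mice. Control replicate 1 thus lay among the cachectic values, while the other 2 control mice lay below all of them. The log2 fold change of Smox was 0.35 (95% confidence interval -0.28 to 0.98, adjusted p = 0.406, edgeR), and without control replicate 1 it was 0.67 (adjusted p = 0.0943). Paox (chromosome 7, 140115799 to 140137224) was at 28.8, 33.0 and 32.8 CPM in control mice and at 25.5, 43.1 and 30.0 CPM in cachectic mice, so that the extremes of the 6 values were both cachectic. Its log2 fold change was 0.06 (95% confidence interval -0.40 to 0.52, adjusted p = 0.861, edgeR). It was -0.18 without cachexia replicate 2 and -0.000335 without control replicate 1. Paox shares 678 bases with Echs1, a mitochondrial enzyme gene on the opposite strand with 4322 to 6831 counts. Whether the counting used the strand is not given in the sources used here, so reads from the shared stretch cannot be assigned with certainty.

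**Figure D2:**
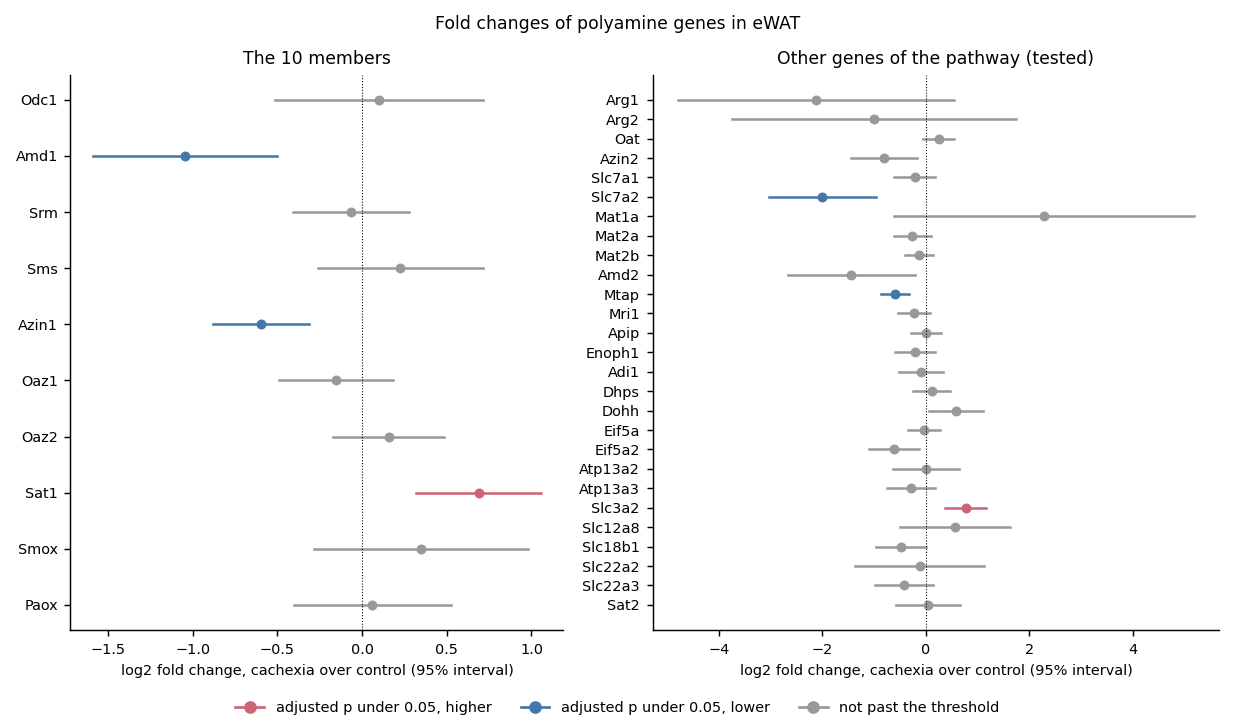
Log2 fold change of cachexia over control (points) with its 95% confidence interval (lines) for the 10 polyamine genes on the left and 27 other tested genes of the pathway on the right, on separate linear scales. Red marks an adjusted p under 0.05 with a higher level in cachexia (Sat1, Slc3a2), blue a lower level (Amd1, Azin1, Slc7a2, Mtap), and grey genes that did not pass, whose intervals range from narrow (Apip) to wide (Mat1a).

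The promoters of Amd1 and Sat1 are shown as the 250 bases before the start of transcription, because these 2 called members are in the RefSeq promoter table (GRCm38.p6), which matched 8 of the 10 genes. The Amd1 stretch is chr10:40302189-40302438 on the minus strand, and the Sat1 stretch is chrX:155216450-155216699 on the minus strand. Both are written 5′ to 3′ along the gene, with a motif match in capitals.
Amd1: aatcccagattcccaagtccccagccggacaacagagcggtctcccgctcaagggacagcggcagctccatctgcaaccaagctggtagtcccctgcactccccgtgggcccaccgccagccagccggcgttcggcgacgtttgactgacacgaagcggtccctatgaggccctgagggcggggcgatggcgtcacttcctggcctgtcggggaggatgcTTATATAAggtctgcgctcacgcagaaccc
Sat1: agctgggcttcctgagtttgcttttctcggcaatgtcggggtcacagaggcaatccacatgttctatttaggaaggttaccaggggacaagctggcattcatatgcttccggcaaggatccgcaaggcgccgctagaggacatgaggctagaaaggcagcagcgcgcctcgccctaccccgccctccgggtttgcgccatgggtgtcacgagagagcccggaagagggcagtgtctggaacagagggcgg
In all, 5 motifs were searched on both strands of these windows and of all 32851 promoters of the table. The Amd1 window holds a TATA-type match (TATANAA) that begins 30 bases before the start on one strand and 29 on the other, the matches overlapping in the capitals, and 10.4% of all promoters hold this motif. This form of the motif was chosen after the Amd1 window was seen, where the stricter TATAAA has no match. The other motifs were the E-box CACGTG (6.02% of promoters), TGATGNAA (3.45%), TTCNNNGAA (7.02%) and TGACNNNGC (10.2%), and none of them has a match in the Amd1 or Sat1 window. Among the other 6 promoters, that of Sms holds the E-box and those of Oaz1 and Smox hold TGACNNNGC. The G and C content was 64.4% in the Amd1 window and 59.6% in that of Sat1, against a median of 52.4% over all promoters.

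By level per length, the 10 genes kept much the same order in each mouse. The order and the shares below depend on the deposited gene length. That length was 2774 bases for Sat1 and 3405 for Odc1, against 1162 and 2208 in their longest protein-coding transcripts. Oaz1 ranked first and Sms last in all 6 mice, Smox ranked ninth in all 6, and Sat1 ranked second in 5 and below Odc1 in control replicate 3. In control mice Sat1 (34.9 ± 4.95 FPKM) and Odc1 (32.8 ± 2.72) lay within each other's spread. The wide spread of Amd1 (17.5 ± 5.65) reached the means of Srm (22.4 ± 1.50) and Azin1 (13.1 ± 0.385, SD, n = 3). In cachectic mice Sat1 was at 55.6 ± 6.48 FPKM, while Odc1 (34.8 ± 14.3) and Oaz2 (30.0 ± 3.11) could not be ordered beyond their spread. Amd1 (8.41 ± 1.12), Azin1 (8.57 ± 0.893) and Paox (6.54 ± 1.80) had overlapping ranges there. Against all genes tested, mean FPKM placed Oaz1 above 96.9% and Sat1 above 93.6% of genes, and Smox above 45.4% and Sms above 25.3%.

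As shares of the summed FPKM of the 10 genes, the catabolic enzymes took more of the total in each cachectic mouse than in any control mouse. They made up 18.5%, 19.0% and 16.8% in control mice and 23.5%, 30.1% and 26.6% in cachectic mice. Sat1 alone went from 14.1% ± 1.25 to 22.4% ± 2.66 (SD, n = 3), while Smox (1.36% ± 0.360 and 1.73% ± 0.411) and Paox (2.59% ± 0.371 and 2.65% ± 0.814) stayed within their spread. The synthesis enzymes took 31.2%, 28.3% and 30.6% in control mice and 24.2%, 21.8% and 33.0% in cachectic mice. Here cachexia replicate 3 stood above all controls, with 19.7% of its total from Odc1 alone. The regulators held 50.3%, 52.7% and 52.7% in control and 52.3%, 48.0% and 40.4% in cachexia, ranges that overlapped.

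**Figure D3:**
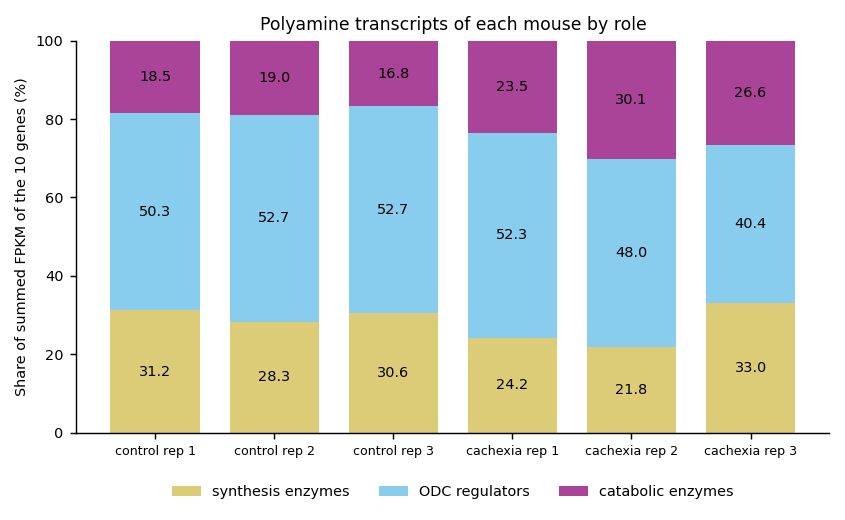
Share of the summed FPKM of the 10 polyamine genes (percent, stacked to 100) taken by synthesis enzymes, ODC regulators and catabolic enzymes in each of the 6 mice. The catabolic share is 16.8% to 19.0% in the 3 control mice and 23.5% to 30.1% in the 3 cachectic mice, while the other shares overlap between the groups.

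Ratios within a library do not depend on scaling between libraries, and 5 were tested with a two-sided exact permutation test over the 6 mice. With 3 mice against 3 this exact test cannot go below 0.1, so no ratio could pass the threshold. Sat1 over Srm was 1.71, 1.53 and 1.42 in control mice and 2.19, 3.33 and 2.48 in cachectic mice, which did not overlap (log2 difference 0.76, exact p = 0.1, adjusted p = 0.167 over 5 ratios). Odc1 over Azin1, the enzyme against its protector, was 2.82, 2.32 and 2.39 in control mice and 3.21, 3.17 and 5.66 in cachectic mice, also apart (log2 difference 0.63, exact p = 0.1, adjusted p = 0.167). Without cachexia replicate 3 that difference was 0.35. The ratio of Srm to Sms was lower in each cachectic mouse (15.4, 13.6 and 14.4) than in any control mouse (15.8, 19.5 and 18.2), with a log2 difference of -0.30 (exact p = 0.1, adjusted p = 0.167). Odc1 over Oaz1, the enzyme against its antizyme, was 0.391, 0.353 and 0.381 in control mice and 0.339, 0.303 and 0.757 in cachectic mice, where a single mouse lay above the rest (log2 difference 0.19, exact p = 1). Smox over Paox overlapped between the groups (log2 difference 0.35, exact p = 0.5, adjusted p = 0.625), and its difference ranged from 0.076 without cachexia replicate 1 to 0.68 without control replicate 1.

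Of 35 other genes of the pathway, 27 were tested, of which 1 rose, 2 fell and 24 did not pass the edgeR test, and 8 had an unadjusted p under 0.05. Over all genes tested 17.6% passed and 34.4% had an unadjusted p under 0.05, so neither count of these 27 stands above the background. Their median log2 fold change was -0.21, against -0.0031 over all genes tested. In arginine and ornithine supply, a list that also holds Azin2 and Oaz3, 1 of 6 tested genes fell. That gene was Slc7a2, a transporter of arginine and other cationic amino acids. Slc7a2 was at 35.5, 18.7 and 21.6 CPM in control mice and at 5.72, 10.3 and 2.82 CPM in cachectic mice, which did not overlap (log2 fold change -2.00, SE 0.45, adjusted p = 0.0226, edgeR). Its call was lost without control replicate 1, where it was highest (log2 fold change -1.68, adjusted p = 0.0533), without control replicate 3 (-2.11, adjusted p = 0.0636) and without cachexia replicate 1 (-1.94, adjusted p = 0.0696).

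In the salvage of methylthioadenosine, the by-product of the Srm and Sms reactions, 1 of 5 tested genes fell. Mtap, the phosphorylase that opens this salvage, was at 36.1, 39.3 and 40.2 CPM in control mice and at 24.3, 25.2 and 26.9 CPM in cachectic mice. The groups did not overlap, and the log2 fold change was -0.60 (SE 0.12, adjusted p = 0.0160, edgeR). Without control replicate 1 the Mtap value was -0.64 (adjusted p = 0.0280). The call was lost without control replicate 2 (adjusted p = 0.0671) or control replicate 3 (0.0854). In polyamine transport, 1 of 7 tested genes rose: Slc3a2, the heavy chain of amino acid transporters that has also been linked to polyamine efflux. Slc3a2 was at 155, 132 and 144 CPM in control mice and at 200, 239 and 294 CPM in cachectic mice, again apart (log2 fold change 0.77, SE 0.17, adjusted p = 0.0229, edgeR). Without control replicate 1 the Slc3a2 value was 0.83 (adjusted p = 0.0406) and the call was kept. The Slc3a2 call was lost without control replicate 2 (adjusted p = 0.0925) or control replicate 3 (0.0957). Higher Slc3a2 in wasting eWAT was likewise reported by the study, from RNA-seq and qPCR. None passed among 4 genes of S-adenosylmethionine supply, 4 of the eIF5A modification, and Sat2, the sole tested gene of other polyamine catabolism.

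The calls of the 3 members were recomputed under 17 other settings of the analysis. Each of them kept its direction in all 17. Azin1 passed the threshold in 15, Amd1 in 13 and Sat1 in 12, and the other 7 members passed in none. The log2 fold change ranged from -0.65 to -0.51 for Azin1, from -1.24 to -0.78 for Amd1 and from 0.58 to 0.78 for Sat1.

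**Figure D4:**
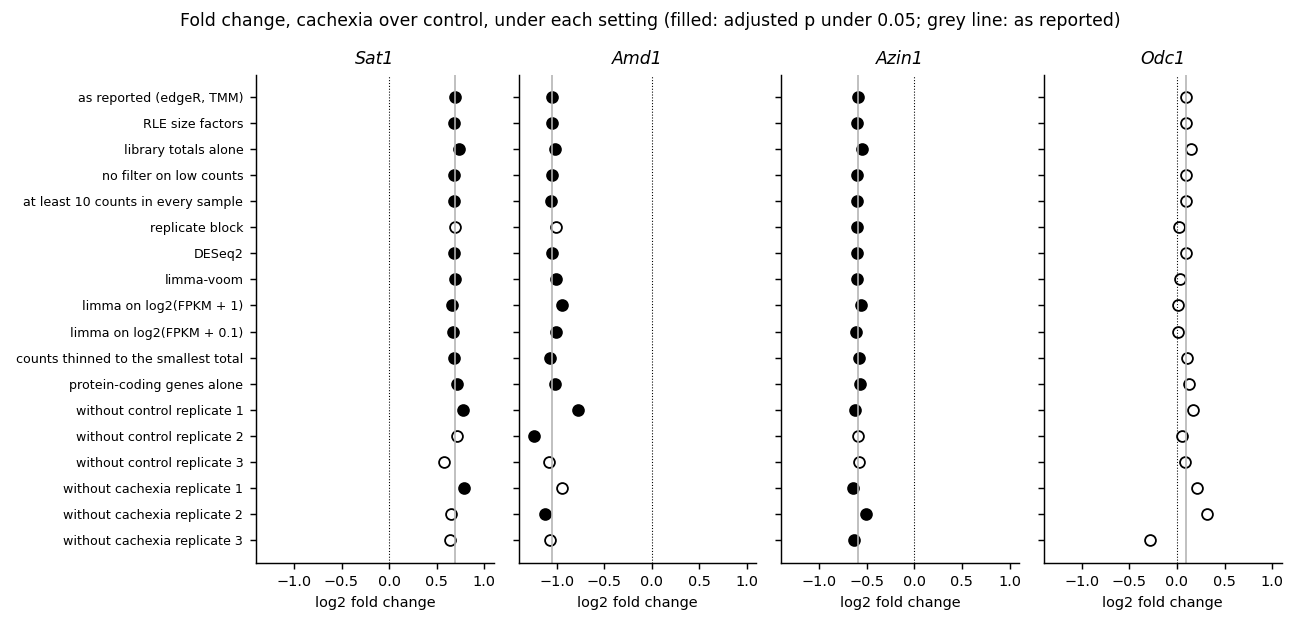
Log2 fold change of cachexia over control for Sat1, Amd1, Azin1 and Odc1 (linear axis) under the reported setting, in the top row, and 17 others, with filled points for an adjusted p under 0.05 and a grey line at the reported value. Sat1, Amd1 and Azin1 stay on one side of 0, with open points mainly where a library is left out, and Odc1 crosses 0 without cachexia replicate 3.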

How the data were processed

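The series holds 6 RNA-seq libraries of eWAT, 3 per group, grouped by their titles. Per the study's methods, reads were cleaned, aligned with Hisat2 and counted per gene with featureCounts (version 1.5.0-p3 in the submitters' processing notes). The authors deposited the raw counts of each gene without normalization, and FPKM computed by the authors from counts and gene length. The notes name the build mm9, whereas the deposited coordinates equal those of GENCODE M21 (GRCm38) for 98.3% of the matched genes and for all 10 members, and are given as such. A deposited table of the study's own DESeq2 (1.16.1) comparison, with fold changes and p-values, was not used.

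The counts were fitted with edgeR 4.0.16 in R 4.3.3 (TMM factors, filterByExpr, quasi-likelihood test, Benjamini-Hochberg over 16003 genes, threshold 0.05, no covariates). Intervals have a confidence level of 95%, and libraries held 14928766 to 18855546 counts. Taken over the genes tested as a whole, each pair of libraries differed by more than sampling noise. FPKM were used for levels and within-library ratios, with limma 3.58.1 on log2(FPKM + 1) and log2(FPKM + 0.1) as an alternative beside DESeq2 1.42.0, limma-voom, other scalings and filters, thinning to the smallest total, protein-coding genes alone, a replicate block and leaving out each library. The fitting procedure was also run on simulated counts that gave all genes the same spread between replicates, unlike real data. No result given here rests on that run. Promoters come from RefSeq and transcripts from GENCODE M21. The 10 members were all named, as were pathway genes past the threshold, and Amd2 as a copy of Amd1. The members and all lists were chosen with earlier results of these data known.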

Additional observations from a re-analysis of the deposited data

How the results depend on the processing

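The number of members higher in cachexia was 1 as reported and ranged from 0 to 1 with a library left out, and the number lower was 2 and ranged from 0 to 2. For the other pathway genes the number higher was 1 with a range from 0 to 1. The number lower was 2 with a range from 0 to 3, while DESeq2 gave 4 lower (Azin2, Slc7a2, Mtap and Eif5a2). The genes called lower also changed. They were Mtap and Slc18b1 without control replicate 1, Slc7a2 and Slc47a1 without control replicate 2, and Azin2 and Mtap without cachexia replicate 1. Without control replicate 3 no member and no other pathway gene passed. Replicates of the same number did not deviate together (correlations of 0.0103, -0.0211 and 0.0120). With 3 samples per group these correlations cannot exclude a shared handling of some samples. With the replicate number as a block, 0 members were higher and 1 was lower (Azin1, adjusted p = 0.0443, edgeR). Sat1 was then at an adjusted p of 0.0626 and Amd1 at 0.0575. Of the other pathway genes, 0 were higher and 3 were lower with this block (Azin2, Slc7a2 and Mtap). With a library left out, the log2 fold change ranged from -0.28 (without cachexia replicate 3) to 0.31 for Odc1, from -0.16 to 0.054 (without cachexia replicate 2) for Srm and from -0.18 (without cachexia replicate 2) to 0.21 for Paox, which was -0.000335 without control replicate 1. The log2 difference of Odc1 over Oaz1 ranged from -0.23 (without cachexia replicate 3) to 0.44. These 5 reversed values did not pass the threshold, and the cause was not tested. Across all genes, 1440 were higher and 1381 lower as reported, 600 and 712 without control replicate 2, and 382 and 446 without control replicate 3. With the replicate block these were 913 and 968. With 3 mice per group the intervals are wide, and for Odc1 log2 changes from -0.51 to 0.71 remain possible at the confidence level used.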

Other observations

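Among the 8 pathway genes that were too low to test in the reported setting was Oaz3, the antizyme known from the testis. Oaz3 had 97 counts in control replicate 1 and at most 4 in any other library. Aoc1, a diamine oxidase of epithelia, had 64 counts there and at most 6 elsewhere. Arg2, a mitochondrial arginase that was tested, had 96 counts there and at most 21 elsewhere. This is the library that also held the epithelial and protamine transcripts. Arg1, the cytosolic arginase, was highest in another control mouse, with 302 counts in control replicate 2 and at most 29 in the other 5 libraries. These genes were chosen after their values were seen, and the first 2 were not tested between groups in the reported setting.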
